A study of Homo sapiens with 4 samples.

Results

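The 10 genes described here are 6 fibroblast growth factor (FGF) ligands, FGF1, FGF2, FGF5, FGF7, FGF9 and FGF18, and the 4 tyrosine kinase receptors FGFR1, FGFR2, FGFR3 and FGFR4. They were taken by symbol from the table of read counts, in which all 10 were present among 37450 features. They were chosen by family, with their fitted differences in read counts between CBX3-depleted and control libraries already in view, so those differences are given here as a description, without a test. The cells were 143B, a human osteosarcoma line derived from HOS cells. Messenger RNA was sequenced 2 days after lipid-mediated siRNA transfection, in 2 libraries labelled siNC (genotype given as WT), the controls here, and 2 that received siRNA against CBX3 (siCBX3, genotype given as CBX3 knockdown). All libraries were of 1 cell line in the same serum-containing medium, and which siRNAs were used is not given in the sources used here.

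FGF ligands are secreted or released proteins that bind a receptor together with heparan sulfate, a sulfated sugar chain on cell surface and matrix proteins. Ligand binding joins a pair of receptors, whose kinase domains then phosphorylate each other and the docking protein FRS2, and the signal runs through RAS and the MAP kinases, PI3 kinase and phospholipase C gamma. In the skeleton the family controls the growth of cartilage and the proliferation and maturation of osteoblasts. CBX3 encodes HP1 gamma, which binds histone H3 methylated at lysine 9.

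Total counts lay between 36509298 and 40336907 per library. The targeted gene CBX3 was 9.15-fold lower in siCBX3, at 57.2 ± 0.165 CPM (library-scaled read counts, with SD and n = 2 here and for each such pair below) against 523 ± 22.2 CPM. Among counts of 1 to 4, between 79.1% and 80.2% were even in each library, so counts cannot be read as independent molecules. Whether both ends of a read pair were counted was not given in the sources used here. Nothing in the labels says that replicates were separate cultures. P-values therefore measure only the spread between these samples, estimated for each gene largely from all genes tested. The osteoblast and mesenchymal list (9 markers) summed to 205 and 218 RPKM in siNC and 625 and 615 in siCBX3. Most of that was SPARC and vimentin (VIM). Of its other markers, SP7, ALPL and IBSP had at most 4 counts in any library. BGLAP had 16 to 30 counts per library, RUNX2 167 to 228, COL1A2 334 to 384 and COL1A1 510 to 689. The epithelial list (5 markers) summed to 6.20 and 6.44 RPKM in siNC and 4.32 and 4.44 in siCBX3, mostly EPCAM, and KRT14 had at most 1 count. The endothelial list (4 markers) summed to at most 0.383 RPKM. The leukocyte list (5 markers) summed to 199 and 189 RPKM in siNC and 290.3 and 266 in siCBX3, nearly all of it CD68, which shares 85.8% of its exon bases with other tested features, while PTPRC had at most 18 counts. The part of these lists in the results was not tested.

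Receptors and ligands spanned a wide range of levels. On the RPKM scale (the authors' read counts divided by gene length and library total, which lets levels of different genes be compared), FGFR1 was the most abundant member in every library, and FGF7 and FGF18 never exceeded 0.124 RPKM. In siNC the order was FGFR1, FGFR4, FGF1, FGF5, FGFR2, FGF9, FGF2, FGFR3, FGF7 and FGF18. Libraries of FGFR4 and FGF1 overlapped in that order, as did those of FGF2 with FGFR3 and of FGF7 with FGF18. In siCBX3 the order became FGFR1, FGFR4, FGFR3, FGF5, FGFR2, FGF1, FGF2, FGF18, FGF7 and FGF9, with overlap between FGFR2 and FGF1 and between FGF18 and FGF7. FGF1 thus went from place 3 to place 6, FGF9 from place 6 to place 10, and FGFR3 from place 8 to place 3. In bulk RNA, fewer cells that express a gene and less RNA per cell cannot be told apart.

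**Figure D1:**
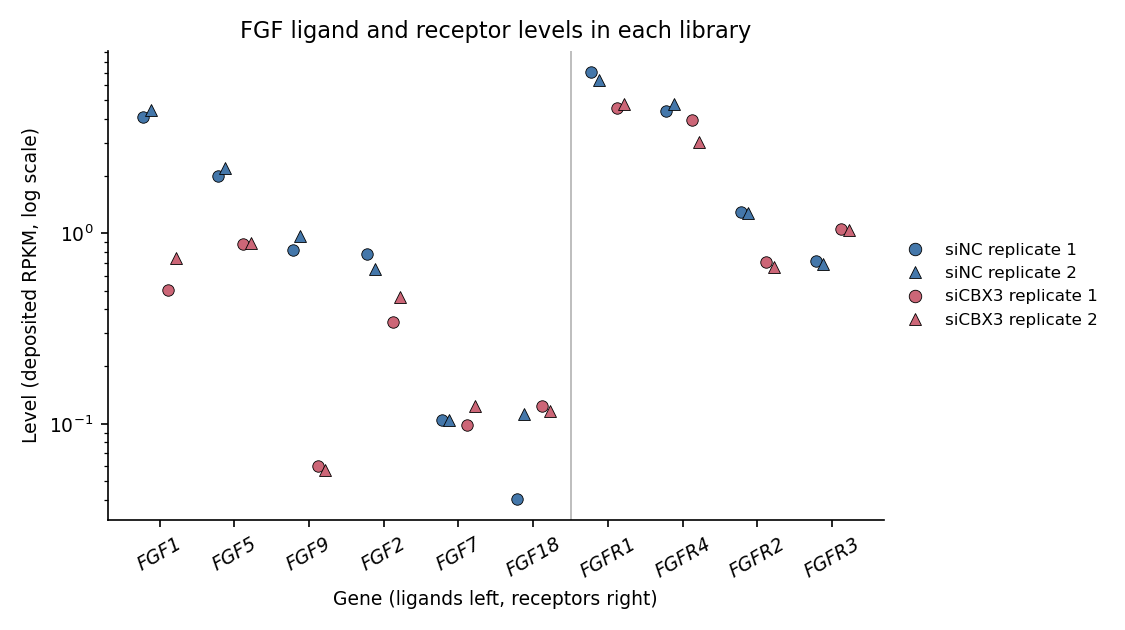
Level of each FGF ligand and receptor (deposited RPKM, log axis) in the 2 siNC libraries (blue) and the 2 siCBX3 libraries (red); each symbol is 1 library and the shape gives the replicate number. Mean FGF9 was 0.896 RPKM in siNC and 0.0586 in siCBX3, mean FGF1 4.28 and 0.624, and FGFR3 is the receptor whose red symbols lie above the blue.

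The DNA just upstream of the annotated start (RefSeq, build GRCh38.p14) is shown for FGF1, FGF5 and FGFR2, which were lower in siCBX3, and for FGFR3, which was higher, so that their windows can be compared; these 4 were picked after their values were seen. RefSeq windows matched 8 of the 10 members. Each line gives the 250 bases before the start nearest to the gene's 5′ end in the count table, on the gene's own strand, with the GC box GGGCGG or its reverse complement in capitals.
FGF1 (chr5:142698071-142698320, minus strand): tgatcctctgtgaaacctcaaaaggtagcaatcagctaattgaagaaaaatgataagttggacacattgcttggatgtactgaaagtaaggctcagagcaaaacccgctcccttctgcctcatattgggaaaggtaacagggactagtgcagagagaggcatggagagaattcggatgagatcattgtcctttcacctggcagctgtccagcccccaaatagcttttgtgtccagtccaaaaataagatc
FGF5 (chr4:80266338-80266587, plus strand): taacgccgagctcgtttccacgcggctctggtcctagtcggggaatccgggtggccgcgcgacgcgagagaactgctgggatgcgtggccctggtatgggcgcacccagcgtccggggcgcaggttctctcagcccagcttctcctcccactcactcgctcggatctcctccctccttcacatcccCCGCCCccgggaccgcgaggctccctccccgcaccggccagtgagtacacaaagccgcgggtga
FGFR2 (chr10:121598445-121598694, minus strand): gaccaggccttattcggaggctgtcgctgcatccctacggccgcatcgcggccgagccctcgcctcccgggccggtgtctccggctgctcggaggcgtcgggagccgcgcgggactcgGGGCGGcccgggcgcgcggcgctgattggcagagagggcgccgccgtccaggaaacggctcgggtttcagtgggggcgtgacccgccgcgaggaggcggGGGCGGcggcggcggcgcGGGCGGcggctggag
FGFR3 (chr4:1793043-1793292, plus strand): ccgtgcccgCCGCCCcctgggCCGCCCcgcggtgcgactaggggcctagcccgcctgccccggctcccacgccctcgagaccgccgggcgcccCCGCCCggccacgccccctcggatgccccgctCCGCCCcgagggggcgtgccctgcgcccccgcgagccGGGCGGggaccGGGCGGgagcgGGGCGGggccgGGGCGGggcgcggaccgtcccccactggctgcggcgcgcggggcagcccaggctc

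The FGF1 window had 44.8% G or C, 2 CpG dinucleotides and 0 GC boxes, and the FGF7 window, not shown, was similar, with 38.4%, 2 and 0. The FGF5 window had 68.8% G or C, 27 CpG and 1 GC box, the FGFR2 window 78.4%, 42 CpG and 3 GC boxes, and the FGFR3 window 86.8%, 40 CpG and 8 GC boxes. Over all 35116 RefSeq windows of this length the medians were 58.0% G or C and 11 CpG, and 42.6% held a GC box on either strand. At the start nearest to the 5′ end, members lower in siCBX3 therefore included a window poor in CpG (FGF1) and windows rich in it (FGF5 and FGFR2). FGF1 has 4 annotated starts, and FGF5 and FGFR2 also have more than 1. The other FGF5 window had 3 CpG, and the other FGFR2 windows 3 to 7. Gene-level counts do not show which start was used. The TATA box TATAAA was in none of the 4 windows shown, and in 10.7% of all windows. In the other FGF5 window it occurred 2 times. A match or its lack is a description of these letters only.

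FGF1 and FGF9 were the ligands with the largest differences. FGF1, the acidic FGF, which binds all 4 receptors and lacks a signal peptide, was counted 807 and 949 times in the control libraries and 97 and 152 times after CBX3 depletion. Both siCBX3 libraries, at 2.75 and 4.01 CPM, were far below both siNC libraries, at 21.4 and 22.5 CPM, and the mean was 6.50-fold lower. The edgeR log2 fold change (siCBX3 minus siNC) was -2.69 (SE 0.14). FGF1 lies on chromosome 5, 142592178 to 142698070 (minus strand, GRCh38, as in the count table). FGF9 (chromosome 13, 21671383 to 21704498, plus strand), a secreted ligand that acts in skeletal and gonadal development and prefers FGFR3 and FGFR2, was counted 139 and 178 times in siNC and 10 times in each siCBX3 library. The control level of 3.96 ± 0.379 CPM compared with 0.274 ± 0.0140 CPM after depletion, 14.5-fold lower, with a log2 fold change of -3.84 (SE 0.30). The 10 counts left make this size imprecise, and on log2(RPKM + 1), where the added 1 exceeds the level itself, the value was -0.84.

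FGF5 and FGF2 were lower by smaller amounts. FGF5, a secreted ligand known for ending the growth phase of hair follicles, was counted 449 and 534 times in the controls and 192 and 206 times after depletion. The groups did not overlap, at 12.3 ± 0.537 and 5.44 ± 0.00811 CPM, and the log2 fold change was -1.18 (SE 0.13). FGF5 (chromosome 4, 80266599 to 80336680, plus strand, GRCh38) shares 136 of its 5998 exon bases with C4orf22 on the same strand, which had 2 to 21 counts per library. FGF2 (chromosome 4, 122826708 to 122898236, plus strand), the basic FGF and a mitogen for mesenchymal cells, was counted 198 and 178 times in the controls and 85 and 122 times after depletion. The siCBX3 libraries averaged 2.82 ± 0.571 CPM against 4.74 ± 0.728 CPM, and the log2 fold change was -0.74 (SE 0.20).

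The reads of FGF2 cannot be fully told apart from those of NUDT6, a gene transcribed from the opposite strand across its 3′ end. The 2 genes share 804 of the 6775 exon bases of FGF2 (11.9%), and the strand setting used in counting was not given in the sources used here. NUDT6 was counted 225 and 272 times in the controls and 133 and 137 times after depletion, a log2 fold change of -0.75 (SE 0.16), close to that of FGF2. The part of NUDT6 reads in the FGF2 difference was not tested.

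FGF7 and FGF18 were too low for their differences to be resolved. FGF7 (chromosome 15, 49423096 to 49488775, plus strand), the keratinocyte growth factor made by mesenchymal cells, was counted 26 and 28 times in the controls and 24 and 32 times after depletion, so the groups overlapped. Its log2 fold change was 0.17 with an SE of 0.40, larger than the value itself. FGF18 (chromosome 5, 171419656 to 171457623, plus strand), a regulator of cartilage and bone growth, had 3 and 9 counts in siNC and 9 in each siCBX3 library. It did not pass the filter on low counts and has no fitted fold change; a difference was not detectable at this depth.

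Summed over the 6 ligands, the level was 8.18 ± 0.462 RPKM in siNC and 2.20 ± 0.274 RPKM in siCBX3, 3.72-fold lower. FGF1 made up 52.2% and 52.4% of that sum in siNC, but 25.1% and 31.1% in siCBX3. FGF5, the next ligand in siNC at 25.5% and 25.9%, was the largest in siCBX3, with 43.7% and 37.0%. The receptors' sum differed less, at 13.3 ± 0.196 RPKM in siNC and 9.90 ± 0.554 RPKM in siCBX3, 1.35-fold lower.

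**Figure D2:**
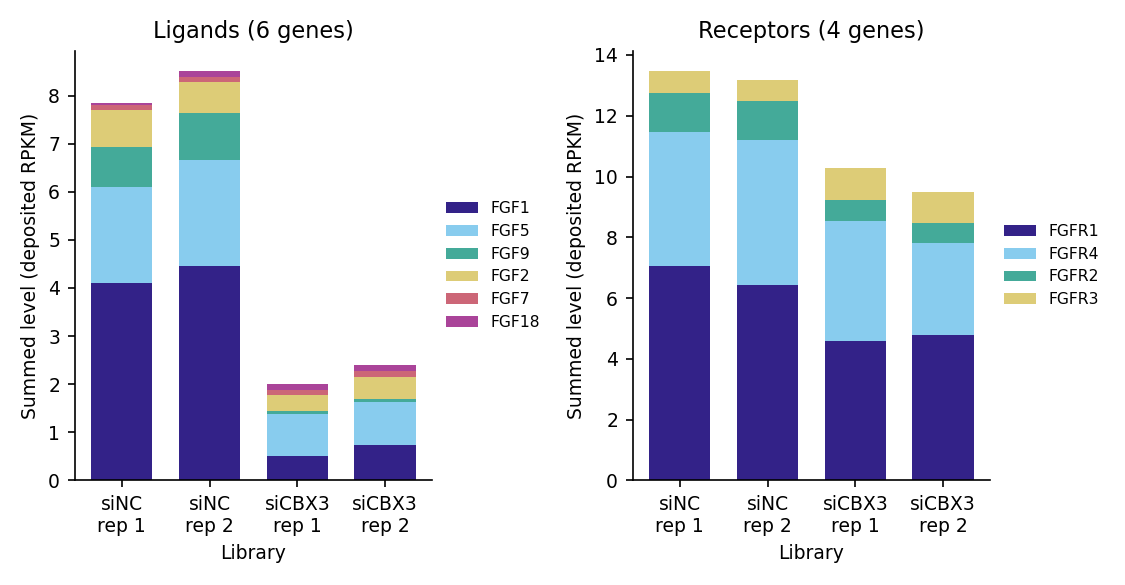
Summed deposited RPKM of the 6 ligands (left) and 4 receptors (right) in each library, stacked by gene; each bar is 1 library. The ligand bars are 7.85 and 8.51 RPKM in siNC and 2.01 and 2.39 RPKM in siCBX3, with the FGF1 segment (dark blue) accounting for most of the gap, and the receptor bars differ less.

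Among the receptors, 3 were lower and 1 was higher in siCBX3. FGFR2 (chromosome 10, 121478334 to 121598458, minus strand, GRCh38), which in bone is carried by osteoblast precursors, was counted 362 and 388 times in the controls and 194 and 192 times after depletion. The libraries of each group lay close together, at 9.41 ± 0.281 and 5.28 ± 0.309 CPM, and the log2 fold change was -0.83 (SE 0.14). FGFR3 (chromosome 4, 1793307 to 1808872, plus strand), a brake on the growth of cartilage, was counted 129 and 135 times in the controls and 186 and 195 times after depletion. It was 1.57-fold higher, at 5.21 ± 0.0930 CPM against 3.31 ± 0.155 CPM, with a log2 fold change of 0.65 (SE 0.17). Its share of the receptors' summed RPKM was 5.31% and 5.25% in siNC and 10.2% and 11.0% in siCBX3.

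FGFR1, the main receptor of mesenchymal cells, was counted 3338 and 3287 times in the controls and 2121 and 2354 times after depletion. The siCBX3 mean of 61.1 ± 1.37 CPM was 1.36-fold below the control mean of 83.3 ± 7.47 CPM, with a log2 fold change of -0.45 (SE 0.08). FGFR1 remained between 44.5% and 52.3% of the receptors' summed RPKM in all 4 libraries. FGFR1 (chromosome 8, 38411138 to 38468834, minus strand, GRCh38) shares 156 of its 12698 exon bases with RP11-350N15.4 on the opposite strand, which had 78 to 137 counts per library.

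FGFR4 (chromosome 5, 177086886 to 177098144, plus strand), the receptor for FGF19 in liver and also present in muscle precursors, was counted 795 and 934 times in the controls and 696 and 563 times after depletion. The groups did not overlap, but the siCBX3 libraries stood apart from each other, at 19.7 and 14.9 CPM against 21.1 and 22.2 CPM in siNC. The log2 fold change was -0.33 (SE 0.11). Its size rested on siCBX3 replicate 2, without which the value was -0.13, and without siCBX3 replicate 1 it was -0.54. Receptor counts are per gene, so the IIIb and IIIc splice forms that set which ligands a receptor binds are not separated.

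Of the 9 members with a fitted value, 7 were lower and 2 (FGF7 and FGFR3) higher in siCBX3, and the median log2 fold change was -0.74. FGF1, FGF5 and FGF9 differed by 1 or more on the log2 scale; of all 20999 genes tested, 12.8% did so with an edgeR adjusted p under 0.05. The libraries of the groups did not overlap in CPM for 8 of the 9 members and for 73.9% of all genes tested. Nothing is read from these counts, this median or their distance from all genes, because the members were chosen with this same contrast in view.

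**Figure D3:**
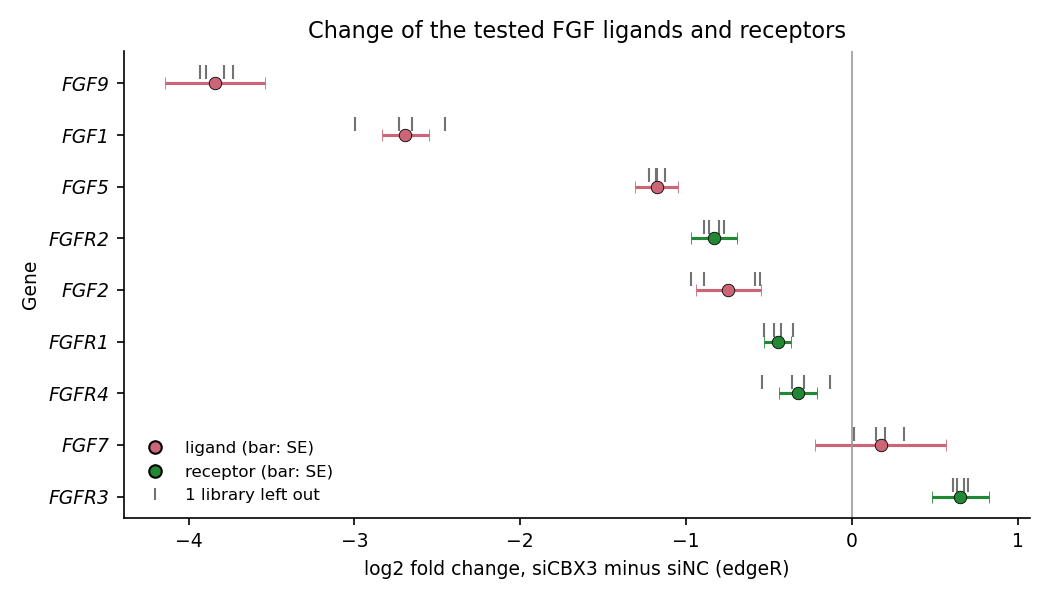
The log2 fold change (siCBX3 minus siNC, edgeR) of the 9 members that passed the filter, with ligands in red and receptors in green; bars are the SE, and grey ticks give the value with 1 library left out. FGF9 (-3.84) and FGF1 (-2.69) lie farthest from 0, FGFR3 (0.65) lies on the other side, and the ticks of FGFR4 run from -0.54 to -0.13.

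The other genes of the pathway were taken in 5 lists, which were also drawn up with results of this contrast known, so their counts and medians are descriptions. Of all 20999 genes tested, 48.4% had an edgeR adjusted p under 0.05, 24.4% higher and 24.0% lower, and the median log2 fold change was -0.01.

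Few other genes of the ligand family passed the filter on low counts. Of 16 other FGF genes, 11 were in the count table and 6 passed the filter; of these 1 rose and 2 fell. Where genes beyond the 10 members are said to have risen or fallen, the edgeR adjusted p was under 0.05. FGF13 and FGF14, intracellular members that do not act through the receptors but regulate sodium channels, fell. FGF13 was counted 64 and 60 times in the controls and 12 and 8 times after depletion (log2 difference -2.49 with SE 0.40, edgeR adjusted p 1.49e-05). FGF14 went from 14.3 ± 0.453 to 3.82 ± 0.462 CPM (log2 difference -1.90 with SE 0.14, edgeR adjusted p 4.06e-11). FGF14 shares 31.6% of its exon bases with ITGBL1 on the opposite strand, which was at 73.5 CPM in siNC and 18.3 in siCBX3 (log2 fold change -2.01); the part of its reads in FGF14 was not tested.

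FGF17, a secreted ligand of the FGF8 group, rose from 19 and 18 counts to 41 and 36 (log2 difference 1.18 with SE 0.40, edgeR adjusted p 0.0174). That call was lost when siNC replicate 2 (adjusted p 0.0818) or siCBX3 replicate 1 (0.131) was left out, and with the DESeq2 test (0.0763). FGF11, FGF12 and FGF22 did not pass the threshold, with log2 fold changes of 0.29, -0.71 and -0.07; FGF11 shares 79.7% of its exon bases with other features. FGF10, a mesenchymal ligand of FGFR2 that was picked out after its values were seen, was counted 4 and 10 times in the controls and 0 times in both siCBX3 libraries and was not tested.

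Co-receptors and binding partners changed in both directions. Of 17 genes, 12 were tested, 6 rose and 2 fell, with a median log2 fold change of 0.41. The number that rose was 4 without siCBX3 replicate 1 and on either RPKM scale. FGFRL1, a receptor relative without a kinase domain, was more abundant than any of the 4 kinase receptors, at 17.3 RPKM in siNC and 23.1 in siCBX3, and rose by 0.49 on the log2 scale (SE 0.08, adjusted p 1.34e-05, edgeR). N-cadherin (CDH2), which can bind FGFR1, rose by 0.73, and the integrin chains ITGAV and ITGB3, a pair reported to bind FGF1, by 0.96 and 1.14. ITGB3 shares 51.6% of its exon bases with RP11-290H9.2 on the same strand, which had a log2 fold change of 1.12. The neural adhesion molecule NCAM1, a non-classical partner of FGFR1, fell by 0.53, and ANOS1, a matrix protein that modulates FGFR1 signalling, fell by 1.14, from 58 and 72 to 26 and 28 counts. The klotho co-receptors of the hormone-like FGFs, also singled out with their values known, were nearly silent, with at most 2 counts for KL and 15 for KLB in any library.

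Heparan sulfate genes moved in both directions. Of 36 genes, 31 were tested, 9 rose and 15 fell, with a median log2 fold change of -0.27. Core proteins changed unequally. Syndecan 2 (SDC2) fell from 16.9 ± 0.361 to 4.82 ± 0.642 CPM (log2 difference -1.81 with SE 0.13, edgeR adjusted p 2.96e-11), while syndecan 4 (SDC4) rose from 23.2 ± 1.35 to 50.7 ± 2.17 CPM (log2 difference 1.13 with SE 0.09, edgeR adjusted p 1.41e-10). Glypican 4 (GPC4) fell by 1.61 and perlecan (HSPG2) by 0.92 on the log2 scale. Glypican 5 (GPC5), chosen after its values were seen, fell from 76 and 68 counts to 10 and 11. Syndecan 1 (SDC1) and agrin (AGRN) were also chosen with their values known. SDC1, the most abundant core protein named here, was at 24.4 RPKM in siNC and 22.5 in siCBX3. Its log2 difference was -0.04 (SE 0.09) and did not pass the threshold, while AGRN rose by 0.77.

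Enzymes at the start and end of the chain also changed. The first sugar is added by XYLT1 or XYLT2, which changed in opposite directions. XYLT2, picked out after its values were seen, was the more abundant per length, at 17.2 RPKM in siNC and 28.8 in siCBX3, and rose by 0.82 on the log2 scale (edgeR adjusted p 1.03e-07). XYLT1, at 1.04 and 0.241 RPKM, fell from 11.1 ± 1.80 to 2.73 ± 0.691 CPM (log2 difference -2.02 with SE 0.17, edgeR adjusted p 7.1e-10). SULF1 is an extracellular sulfatase that trims the sulfate groups needed for FGF to form a complex with its receptor. It rose from 4.78 ± 0.155 to 13.7 ± 1.27 CPM (log2 difference 1.52 with SE 0.13, edgeR adjusted p 1.21e-09). Per length SULF1 was low, at 0.522 RPKM in siNC and 1.42 in siCBX3. The related gene SULF2, picked out after its values were seen, was at 24.8 and 29.0 RPKM. SULF2 rose by 0.31 on the log2 scale (edgeR adjusted p 0.00198).

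Signal transducers below the receptor also changed in both directions. Of 29 genes, all 29 were tested, 12 rose and 5 fell (3 fell without siCBX3 replicate 2), with a median log2 fold change of 0.19. On either log2 RPKM scale 7 rose and 5 fell. The docking protein GAB2 rose from 18.1 ± 0.596 to 37.1 ± 1.80 CPM (log2 difference 1.03 with SE 0.09, edgeR adjusted p 1.51e-09). NRAS rose by 0.80, STAT3 by 0.68, AKT1 by 0.59 and the ribosomal S6 kinase RPS6KA3 by 0.58 on the log2 scale. The adaptor CRKL fell from 31.1 ± 2.59 to 13.6 ± 0.735 CPM, 2.29-fold and the largest difference in the list.

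Feedback inhibitors and target genes of the pathway did not move together. Of 23 genes, all tested, 5 rose and 7 fell, with a median log2 fold change of -0.17. The number that rose was 3 without siNC replicate 1, siCBX3 replicate 1 or siCBX3 replicate 2, and 2 with library totals in place of TMM factors. Cyclin D1 (CCND1) fell by 1.48 on the log2 scale and MYC from 9.33 ± 0.541 to 4.26 ± 0.470 CPM. Among the Sprouty and Spred inhibitors, SPRY1 fell from 64 and 102 to 28 and 14 counts (log2 difference -1.84 with SE 0.35, edgeR adjusted p 0.000101). SPRY4, the most abundant Sprouty gene per length at 41.3 RPKM in siNC and 30.7 in siCBX3, fell by 0.35, and SPRED2 fell by 0.52. SPRY2, chosen after its values were seen, rose by 0.47, and PHLDA1 rose from 119 ± 2.72 to 261 ± 9.57 CPM. The ERK phosphatase DUSP6, a widely used readout of FGF signalling that was also chosen after its values were seen, had a log2 fold change of -0.03 (SE 0.07), at 165 ± 4.61 and 161 ± 6.76 CPM. DUSP6 shares 40.5% of its exon bases with an antisense feature whose log2 fold change was -0.02.

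**Figure D4:**
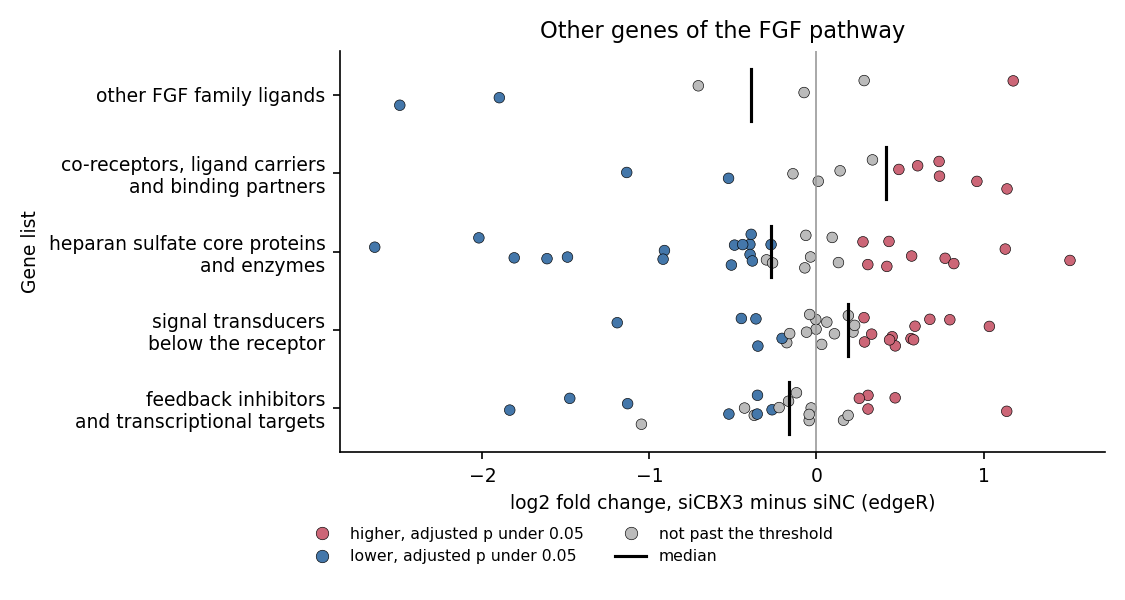
The log2 fold change (siCBX3 minus siNC, edgeR) of each tested gene in 5 lists of other FGF pathway genes; red and blue points passed an adjusted p under 0.05, grey ones did not, black bars are medians and the vertical position within a list is arbitrary. Medians run from -0.39 for the other FGF family genes (labelled ligands) to 0.41 for co-receptors and partners. Each list holds points on both sides of 0.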

How the data were processed

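The authors deposited raw read counts per gene and RPKM values for 4 libraries of a stranded mRNA kit. The submitters' processing notes list Trimmomatic 0.36, STAR 2.5.3a, featureCounts, Subread 1.5.1 and GRCh38. Strand and pair settings of the counting are not given in the sources used here. Dividing the deposited counts by length and library total returned the deposited RPKM values within a relative error of 3.79e-07.

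The count test was edgeR 4.0.16 under R 4.3.3. Its filterByExpr step, with a minimum count of 10 and a minimum total of 15, left 20999 of 37450 features, and TMM factors scaled the libraries. A quasi-likelihood fit with group as its only term used all 4 libraries. With 2 residual and 21.97 prior degrees of freedom, the variance of each gene was drawn largely from all genes tested. P-values were adjusted by the Benjamini-Hochberg method over all genes tested, with a threshold of 0.05. The SE was taken as the absolute log2 fold change divided by the square root of the F statistic. Levels are TMM-scaled CPM, mean ± SD over 2 libraries, or deposited RPKM. On simulated data for this comparison (20478 genes), the fit found 9 of 50 genes simulated with a 1.25-fold change and 27 of 50 with 1.5-fold. It found 36 of 50 with 2-fold and 50 of 50 with 4-fold. Of its 125 calls, 3 were genes simulated without a change. The simulation changed a far smaller part of the genes than the 48.4% called in these data, and none with the lowest counts. Its recovery therefore does not carry over to them.

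The members and the 5 pathway lists were chosen with earlier results of these data known. From each list up to 6 tested genes with the smallest adjusted p were named, with CBX3 and genes that share exon bases with a member; not every gene so named is discussed. Profiles were compared by Euclidean distance of centred log2 CPM (prior count 2), 3 genes for each of 2 members. Exon overlap was computed from the deposited coordinates and promoters were read from RefSeq, matching all members except FGF9 and FGFR1. Alternatives used limma 3.58.1 and DESeq2 1.42.0. Plots used Python 3.11.15 and matplotlib 3.10.9.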

Additional observations from a re-analysis of the deposited data

How the results depend on the processing

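Under 15 alternatives (14 planned, and 1, counts halved and rounded up, added after seeing the data because most low counts were even), each of the 9 members with a fitted value kept its direction wherever a value could be fitted, and the number of genes changed stayed between 8276 and 10630 (10173 in the fit reported). The log2 fold change of FGFR4 ran from -0.54 to -0.13, and the latter was the value without siCBX3 replicate 2. On log2(RPKM + 1) FGF9 was -0.84, FGF1 -1.70 and FGF2 -0.29, since the added 1 shrinks differences of low genes.

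The replicate numbers are shared between groups, but same-numbered libraries hardly deviated together (correlation across genes 0.0287), and with 2 pairs the numbers were not taken as a pairing. The fit with the replicate block called 10630 genes and turned the direction of no member; no list count moved by more than 1.5 times under the block.

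List counts that moved by more than 1.5 times were as follows. Feedback inhibitors and targets that rose were 5 in the fit reported, 2 with library totals, 3 with upper-quartile scaling, 3 with the DESeq2 test, 1 on log2(RPKM + 1) and 1 on log2(RPKM + 0.1), and 3 to 5 with a library left out. Heparan sulfate genes that rose were 9, and 5 on either RPKM scale. Signal transducers that rose were 12, and 7 on either RPKM scale; those that fell were 5, and 3 to 6 with a library left out. Other FGF family genes that rose were 1, and 0 when genes averaging under 50 counts were dropped and with the DESeq2 test. Those that fell were 2 (FGF13 and FGF14), and 1 when genes averaging under 50 counts were dropped and on log2(RPKM + 1). Co-receptors and partners that fell were 2, and 1 when genes averaging under 50 counts were dropped. The log2 fold change of FGF22 ran from -0.35 to 0.24 with a library left out, turning without siNC replicate 1, and that of DUSP6 from -0.077 to 0.013, turning without siCBX3 replicate 2. FGF13 lost its call on log2(RPKM + 1) (-0.09) and SPRY2 on both RPKM scales (0.34 and 0.39). Beyond the constructions named above, the cause was not tested. Depth limits FGF7, FGF18 and most other FGF family genes, whose counts per library were low.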

Other observations

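The genes whose centred log2 CPM profiles over the 4 libraries lay nearest to that of FGF9 were AP001626.2 (Euclidean distance 0.306), TMEM229B (0.337) and the potassium channel gene KCNA2 (0.401). AP001626.2 had 16 and 22 counts in siNC and 0 in both siCBX3 libraries, TMEM229B 48 and 73 against 4 and 3, and KCNA2 560 and 514 against 34 and 32. The genes nearest to FGFR1 were RAB11FIP1 (0.00937), SAR1B (0.0164) and DDX55 (0.0174), and RAB11FIP1 lies on the same chromosome as FGFR1, at 37858618 to 37899467 (minus strand, GRCh38). With 4 libraries in 2 groups such likeness is a description of the same contrast.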
